A study of Mus musculus with 7 samples.

Results

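The 10 genes described here encode 5 granins and secretogranins (Chga, Chgb, Scg2, Scg3 and Scg5) and 5 neuropeptide precursors (Npy, Penk, Gal, Vip and Adcyap1). They were taken by gene symbol from a table of 35976 genes, and all 10 symbols were found. RNA sequencing of whole glands from the inbred mouse strain C57BL/6J, with no further allele or treatment in the labels, gave 7 libraries, each from 1 pool of glands. An E18.5 pool of 40 glands came from embryos of undetermined sex. At P1 16 glands from males and 22 from females were pooled, at 2 weeks 6 from each sex, and at 12 weeks 4 from each sex. P1 is postnatal day 1. No group had a second pool, so ages were compared with the male and the female library of an age standing as its 2 libraries. With sex in the model, the p-values therefore set each age difference against how far the male and the female pools disagree. This disagreement was taken over all postnatal ages at once, not for each age difference separately. A gene thus had the same standard error in every age comparison. That disagreement may be biological or technical. The spread estimated for each gene also drew on that of other genes.

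Chromaffin cells of the adrenal medulla store catecholamines in large dense-core granules and release them into the blood by exocytosis. Granins are acidic proteins that condense the content of these granules, and they are also cut into peptides. Neuropeptides are made as longer precursors, are cleaved by prohormone convertases inside the granules, and are released together with adrenaline and noradrenaline. A whole gland also holds cortex, nerve endings, ganglion cells, vessels and capsule, and in such bulk RNA fewer cells of a type and less RNA per cell cannot be told apart.

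The libraries held between 15184210 and 23551289 reads in genes. The 10 genes took 0.21% of the reads at E18.5 and from 0.249% to 0.719% after birth. Chga, Chgb and Scg2 alone made up from 82.7% (P1 male) to 95.2% (12-week female) of these reads. The chromaffin enzymes Th, Ddc and Dbh were present in every library, with Th between 4970 and 7507 normalized counts. Some libraries stood apart from their labels or from the others. The library labelled P1 female held the Y-linked transcript Ddx3y at 603.8 normalized counts, against 2782 in P1 male and at most 1.76 in the other female libraries. The 9 exocrine pancreas markers summed to 7044 normalized counts in P1 male and to at most 113.7 elsewhere, with Ctrb1 at 2858 in P1 male. The hormone genes of pancreatic islets, whose cells also make granins, were at or below 8.83 normalized counts in every library (Ins1, Ins2, Gcg, Iapp, Ppy and Pyy). Of the 9 islet markers only Slc2a2, a glucose transporter gene also used by liver cells, passed the filter on low values. It had 313.4 normalized counts in the E18.5 pool, 410.0 and 534.2 for the male and female pools of P1, 22.24 and 52.93 for those of 2 weeks, and 4.19 and 4.53 for those of 12 weeks, and fell by 6.45 on the log2 scale from P1 to 12 weeks (limma adjusted p = 0.000168).

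The stretches upstream of the genes are shown because cyclic AMP response elements are a textbook feature of granin and neuropeptide promoters. The full element is TGACGTCA and its core is TGACG, which is contained in the full element. Both strands of the 250 bases before each RefSeq start (GRCm38.p6) were searched, for the 9 genes other than Penk. TGACG was found in 7 of the 9, against 17.8% of 32851 promoter windows of the same length, and TGACGTCA in 2 of the 9, against 1.55% of windows. The units differ, since the 9 are genes while the 32851 windows belong to 27025 genes. Of the 9 genes only Adcyap1 had 2 starts. Each line below gives 30 bases on the strand of the gene, 5′ to 3′, with the match in capitals.
Chga: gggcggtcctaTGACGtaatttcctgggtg
Chgb: gggctgctccgTGACGTCAgggctgagcga
Scg2: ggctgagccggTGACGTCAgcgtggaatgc
Scg3: cgctgggtcgcTGACGccatcctcacgcct
Scg5: aaggaggtaaaTGACGttcataggggtcga
Vip: gatcactactgTGACGtctttcggggagcc
Adcyap1: gactaggatgcTGACGtcttttactgatac
The match began 44 bases before the start in Chga (chr12:102554886-102554915), 72 in Chgb (chr2:132781559-132781588) and 68 in Scg2 (chr1:79440076-79440105). It began 30 bases before the start in Scg3 (chr9:75684068-75684097), 175 in Scg5 (chr2:113829248-113829277), 79 in Vip (chr10:5639128-5639157) and 91 in Adcyap1 (chr17:93198915-93198944). The same match began 242 bases before the other start of Adcyap1. Chgb and Scg2 were the genes with the full element. In GENCODE M21, whose starts for these genes lie farther upstream than those of RefSeq, the 30 bases shown for Chgb and Scg2 lie inside the span of the gene given below. Neither motif was found in the windows of Npy and Gal. A match describes letters only, and no binding was measured here.

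Chgb encodes chromogranin B, a bulk granule protein of chromaffin cells (chromosome 2, 132781278 to 132795079, plus strand, GRCm38). It stood at 13635 normalized counts in the E18.5 pool, 14278 and 33027 for the male and female pools of P1, 59171 and 51203 for those of 2 weeks, and 43249 and 52677 for those of 12 weeks. The 4 later libraries were all above the 3 perinatal ones, and P1 male lay near E18.5 while P1 female lay between. On the log2(normalized count + 1) scale, Chgb rose by 1.34 ± 0.34 (SE; limma adjusted p = 0.0435) from P1 to 2 weeks and by 1.14 ± 0.34 (limma adjusted p = 0.0375) from P1 to 12 weeks. The difference from 2 weeks to 12 weeks was -0.21 (limma adjusted p = 0.723).

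Chga encodes chromogranin A, the founding granin and the precursor of peptides such as catestatin (chromosome 12, 102554969 to 102565028, plus strand). Its levels were 11227 normalized counts in the E18.5 pool, 14233 and 35941 for the male and female pools of P1, 39218 and 32704 for those of 2 weeks, and 22910 and 30680 for those of 12 weeks. E18.5 and P1 male were the lowest, while P1 female was already within the range of the 2-week libraries, so the P1 and 2-week groups overlapped.
Chga passed the limma test in no age comparison (log2 differences of 0.66 ± 0.36, -0.43 and 0.23, adjusted p = 0.257, 0.453 and 0.639). Across the 7 libraries Chga and Chgb had a Pearson r of 0.905, a description over points that share age and library.

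Scg2 encodes secretogranin II, the precursor of secretoneurin (chromosome 1, 79434669 to 79440120, minus strand). Scg2 had 9877 normalized counts in the E18.5 pool, 11172 and 15575 for the male and female pools of P1, 26474 and 24126 for those of 2 weeks, and 35812 and 38738 for those of 12 weeks. Each later age lay above the earlier one with no overlap. Scg2 rose by 0.94 ± 0.21 on the log2 scale from P1 to 2 weeks (limma adjusted p = 0.0303) and by 1.497 ± 0.21 from P1 to 12 weeks (limma adjusted p = 0.00246). The step from 2 weeks to 12 weeks, 0.56 ± 0.21, did not pass (limma adjusted p = 0.123).

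Scg3 and Scg5 encode proteins that act on the other granule cargo. Secretogranin III, the product of Scg3, binds chromogranin A and cholesterol-rich granule membrane. Scg3 had 730.1 normalized counts in the E18.5 pool, 743.8 and 1070 for the male and female pools of P1, 1082 and 987.2 for those of 2 weeks, and 830.5 and 876.8 for those of 12 weeks. Its highest library was 1.48 times its lowest, the narrowest range of the 10 genes, and it passed no age test in limma.
Scg5 encodes 7B2, the chaperone of the convertase PC2. Scg5 had 301.6 normalized counts in the E18.5 pool, 396.0 and 482.4 for the male and female pools of P1, 803.3 and 853.1 for those of 2 weeks, and 795.5 and 554.4 for those of 12 weeks. The 2-week and 12-week libraries all lay above the P1 libraries. The rise from P1 to 2 weeks was 0.92 ± 0.22 on the log2 scale (limma adjusted p = 0.0377), and the difference from P1 to 12 weeks, 0.60 ± 0.22, missed the threshold (limma adjusted p = 0.0707).

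**Figure D1:**
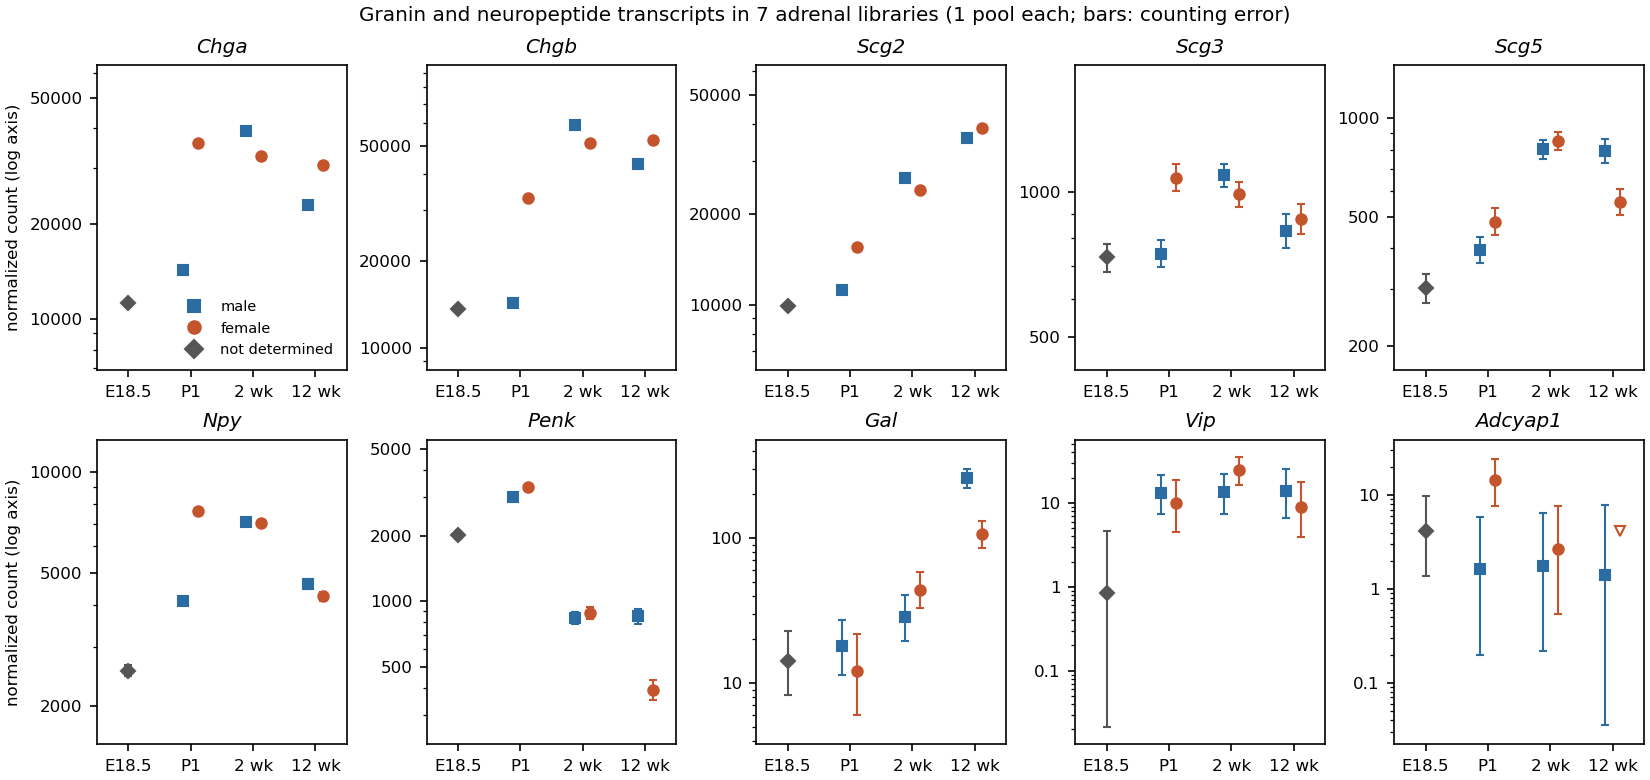
Normalized counts (vertical log axes, scaled separately for each gene) of the 10 genes at the 4 ages (horizontal axis), 1 point per library, squares male, circles female, diamonds the E18.5 pool of undetermined sex; bars are 95% counting intervals, often smaller than the point, and the open triangle marks the upper counting limit of Adcyap1 in 12-week female, where it had 0 reads. Scg2 climbed with age to 38738 in 12-week female, Penk dropped from 3337 in P1 female to 392.6 in 12-week female, and Gal was highest at 12 weeks.

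Penk, which encodes the precursor of the enkephalins, went the other way (chromosome 4, 4133531 to 4138819, minus strand). Its levels were 2014 normalized counts in the E18.5 pool, 3009 and 3337 for the male and female pools of P1, 837.1 and 882.2 for those of 2 weeks, and 851.5 and 392.6 for those of 12 weeks. All 4 libraries from 2 weeks on were below every perinatal library. Penk fell by 1.88 ± 0.31 on the log2 scale from P1 to 2 weeks (limma adjusted p = 0.0120) and by 2.45 ± 0.31 from P1 to 12 weeks (limma adjusted p = 0.00169). The difference from 2 weeks to 12 weeks was -0.57 (limma adjusted p = 0.255). The 12-week female library was the lowest of all, while the 12-week male level lay between the 2-week levels. A noncoding gene on the opposite strand, A830012C17Rik, overlaps Penk. It had at most 11.04 normalized counts in any library, and without a stated use of strand in the counting its reads cannot be told apart from those of Penk.

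Gal encodes galanin, a peptide of sensory, sympathetic and endocrine cells (chromosome 19, 3409915 to 3414544, minus strand). Gal had 14.28 normalized counts at E18.5 (17 reads), 18.00 in P1 male (22 reads), 12.14 in P1 female (11 reads), 28.47 in 2-week male (32 reads), 44.11 in 2-week female (50 reads), 258.7 in 12-week male (185 reads) and 106.3 in 12-week female (94 reads). Both 12-week libraries stood above all others, and their 95% counting intervals, 222.7 to 298.7 and 85.94 to 130.1, did not reach the 2-week ones. Gal rose by 2.20 ± 0.49 on the log2 scale from 2 weeks to 12 weeks (limma adjusted p = 0.0301) and by 3.40 ± 0.49 from P1 to 12 weeks (limma adjusted p = 0.00257). The earlier step of 1.21 ± 0.49 did not pass (limma adjusted p = 0.144).

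Npy encodes neuropeptide Y, which chromaffin cells and sympathetic neurons release with catecholamines (chromosome 6, 49822710 to 49829507, plus strand). It stood at 2545 normalized counts in the E18.5 pool, 4120 and 7627 for the male and female pools of P1, 7097 and 7030 for those of 2 weeks, and 4607 and 4244 for those of 12 weeks. The 2-week libraries lay between the P1 libraries, and both 12-week libraries lay below the 2-week ones. None of the age differences of Npy passed in limma, the nearest being -0.68 ± 0.26 on the log2 scale from 2 weeks to 12 weeks (adjusted p = 0.126).

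Vip and Adcyap1 encode vasoactive intestinal peptide and PACAP, which act on related receptors and are best known in the adrenal gland from nerve fibres. Vip had 1 read at E18.5 (0.84 normalized counts) and, for male and female pools, 13.09 and 9.93 normalized counts at P1, 13.34 and 24.70 at 2 weeks, and 13.98 and 9.05 at 12 weeks. The postnatal libraries ranged from 8 to 28 reads, and no age difference of Vip passed in limma (adjusted p = 0.471, 0.460 and 0.983). Adcyap1 had 5 reads in the E18.5 pool, 2 and 13 for the male and female pools of P1, 2 and 3 for those of 2 weeks, and 1 and 0 for those of 12 weeks. In the library with 0 reads, 3 reads would have been 3.39 normalized counts. Its mean of 3.72 normalized counts was under the minimum of 10 set for testing, so 9 of the 10 genes were tested. Adcyap1 was above 3 reads only at E18.5 and in P1 female, and differences at this depth were not tested.

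Counted together, 3 of the 9 tested genes rose and 1 fell from P1 to 2 weeks, where 16.4% of all 16720 tested genes passed in limma (5.89% higher, 10.5% lower). From 2 weeks to 12 weeks 1 of the 9 rose and none fell, against a background of 15.3% (5.4% higher, 9.89% lower). At an unadjusted p under 0.05 in limma there were 3 of the 9, beside 5434 of all 16720 genes. In edgeR 1 of the 9 passed, beside 2441 of all genes. From P1 to 12 weeks 3 rose (Chgb, Scg2 and Gal) and 1 fell (Penk), against 41.2% (17.6% higher, 23.5% lower). The last share, 4 of 9, was thus near the background. The median log2 difference of the 9 genes was 0.66, -0.32 and 0.23 for these comparisons, beside 0.00261, -0.03 and -0.03 over all genes. Libraries of the compared ages did not overlap for 5 higher genes and 1 lower gene from P1 to 2 weeks, where 33.4% and 34.5% of all genes were so separated. For 2 weeks to 12 weeks the counts were 2 higher and 4 lower (30.7% and 35.3% of all genes), and for P1 to 12 weeks 4 higher and 1 lower (34.5% and 37.8%).

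Chgb, Scg2, Scg5 and Penk each lost the P1 to 2 weeks call without any 1 of P1 male, P1 female, 2-week male or 2-week female. Such a fit kept 1 residual degree of freedom, and most calls over all genes were lost as well. The loss was thus not particular to these genes. They also lost the call with no filter on low genes, where 0 of 27254 genes passed in limma. The same held with no trend in the variance, where 1672 of 16720 genes passed. Chgb also missed it narrowly in edgeR (adjusted p = 0.0513) and with a pseudocount of 0.1 in limma (adjusted p = 0.0530). Gal lost the 2 weeks to 12 weeks call without any 1 of P1 male, P1 female, 2-week male or 2-week female, where calls over all genes fell too. It also lost the call without 12-week male, with no filter or with no trend. Without 12-week male the genes of the set called at this step were others, all lower at 12 weeks. From P1 to 12 weeks Penk passed under all 15 alternatives. Scg2 lost that call only without P1 male and Gal only without P1 female, where calls over all genes fell too. Chgb lost it without P1 male (limma adjusted p = 0.364), with no filter, with equal library totals and with no trend. Without P1 male Npy fell over these ages (limma adjusted p = 0.0465), and without 12-week female Scg5 rose (limma adjusted p = 0.00522).

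The sizes of the called differences also rested on single libraries. The log2 difference of Chgb from P1 to 2 weeks was 0.76 without P1 male and 1.93 without P1 female, and that from P1 to 12 weeks 0.55 and 1.72. The rise of Gal from 2 weeks to 12 weeks was 1.44 without 2-week male, 2.95 without 2-week female, 1.54 without 12-week male and 2.85 without 12-week female. Between P1 and 12 weeks Gal stood at 2.74 without 12-week male and 4.06 without 12-week female, and Penk at -3.07 and -1.84. Scg2 (0.69 to 1.18 from P1 to 2 weeks and 1.25 to 1.74 from P1 to 12 weeks), Scg5 (0.67 to 1.17 at the early step) and Penk at the early step (-2.22 to -1.55) moved by less than 1.5 times with any 1 library left out.

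**Figure D2:**
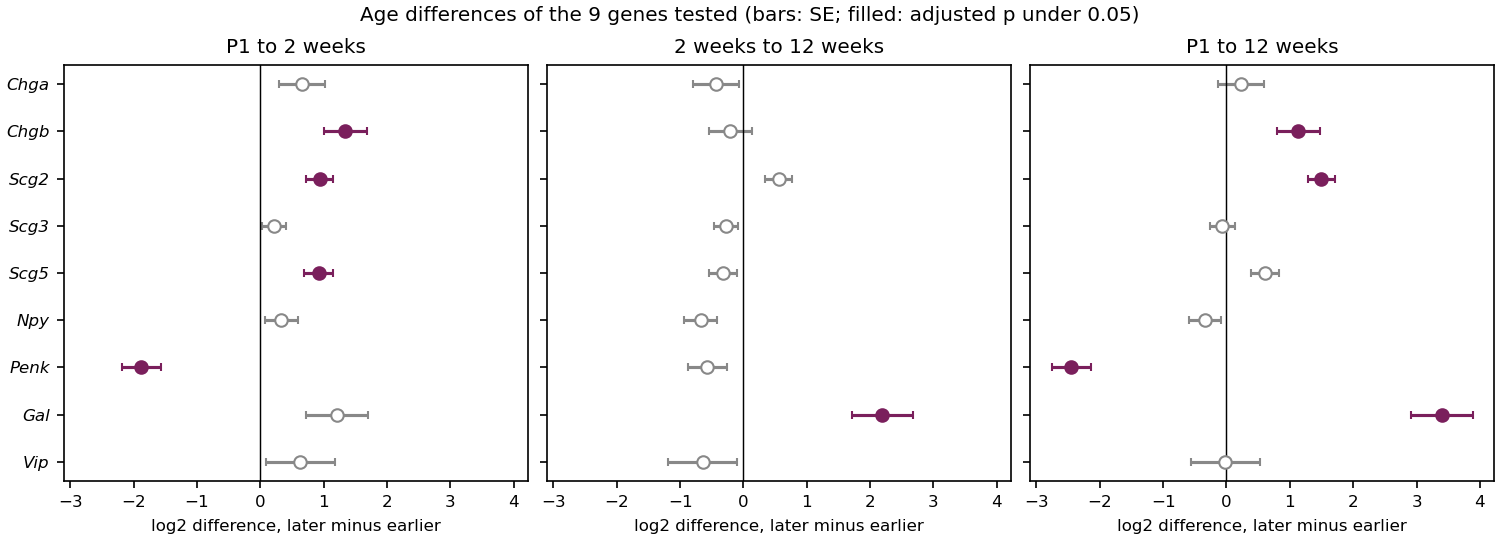
Difference between ages on the log2(normalized count + 1) scale (horizontal axis, later minus earlier) with its standard error for the 9 genes tested (vertical axis), in 3 panels for P1 to 2 weeks, 2 weeks to 12 weeks and P1 to 12 weeks; filled points passed an adjusted p of 0.05 in limma. Penk lies at -1.88 and -2.45 in the outer panels, and Gal at 2.20 and 3.40 in the panels that end at 12 weeks and start at 2 weeks or P1.

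The change around birth rested on 1 embryonic library, which both comparisons share, and was described without a test. From E18.5 to P1 male only Vip was at least 2-fold higher of the 9 genes, where 8.4% of all genes were at least 2-fold apart (4.9% higher, 3.5% lower). From E18.5 to P1 female Chga, Chgb, Npy and Vip were at least 2-fold higher, where 13.2% of all genes were at least 2-fold apart (7.04% higher, 6.12% lower). Vip was thus higher in both, as were 2.91% of all genes. Chga was 1.27 times the E18.5 level in P1 male and 3.20 times in P1 female, and Npy 1.62 and 2.997 times. Penk was 1.49 and 1.66 times the E18.5 level, so that its highest level of all was at P1. Vip was 15.6 times the E18.5 level in P1 male, from 16 reads against 1, with a counting interval of 2.42 to 653.4.

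No gene of the set passed the test for a sex difference over the 3 postnatal ages (limma adjusted p = 0.999 for all 9, and edgeR called none), where 0.00598% of all genes passed. None of the 9 had an unadjusted p under 0.05 in limma, beside 521 of all 16720 genes. The same limma fit called none of the 4 Y-linked genes listed either, at log2 differences of 6.97 to 8.06 (adjusted p = 0.999), so a missed threshold in it does not show that the sexes had like levels. At P1 the granins were lower in the male library. The male over female ratio of normalized counts was 0.396 for Chga, 0.432 for Chgb, 0.717 for Scg2, 0.695 for Scg3 and 0.821 for Scg5, and it was 0.540 for Npy. Chga and Chgb were the 2 of 9 genes at least 2-fold apart at P1, where 6.78% of all genes were so far apart (3.75% higher and 3.03% lower in the male library). At 2 weeks no gene of the 9 was 2-fold apart (4.24% of all genes, 0.568% higher and 3.67% lower in males), with ratios of 1.199 for Chga, 1.16 for Chgb, 1.10 for Scg2 and 1.01 for Npy. Penk and Gal were more than 2-fold higher in 12-week males than in 12-week females, where 8.83% of all genes were 2-fold apart (4.84% higher and 3.98% lower in males). The ratio was 2.17 for Penk (95% counting interval 1.90 to 2.48) and 2.43 for Gal (1.89 to 3.15), while Chga stood at 0.747 and Scg5 at 1.44. Over the 4 genes Th, Ddc, Dbh and Slc18a1 the ratios of Penk and Gal at 12 weeks were 1.95 and 2.18.

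Other transcripts differed between the P1 libraries as well. The 12 steroidogenic genes of the cortex summed to 273029 normalized counts in P1 female and 488836 in P1 male. In P1 male 7 of the 9 granin and neuropeptide genes were lower. Their median log2 difference, male minus female, was -0.48, beside -0.02 over all genes. Also lower there were 13 of 14 genes of regulated exocytosis, 9 of 10 sympathoadrenal transcription factors and 6 of 8 catecholamine genes. So were 5 of 6 processing genes, 6 of 7 peptide receptors and 3 of 3 granin-like genes. Among markers, 7 of 9 neuronal, 7 of 7 Schwann cell, 7 of 7 skeletal muscle and 6 of 7 adipocyte genes were lower. Higher there were 11 of 12 cortical genes, 4 of 4 other neuropeptides, and 8 of 8 kidney, 8 of 8 exocrine pancreas and 6 of 7 liver markers. None of these counts was tested. Over the 4 genes Th, Ddc, Dbh and Slc18a1, which make or store catecholamines, Chga in P1 male was 0.454 times its P1 female value. On that scale the ratio was 0.496 for Chgb, 0.823 for Scg2, 0.80 for Scg3 and 0.942 for Scg5. For the neuropeptide genes it was 0.62 (Npy), 1.034 (Penk), 1.51 (Vip) and 1.70 (Gal). The part of the cortex, of these other cells, of the pancreatic transcripts in P1 male and of the Y-linked transcripts in P1 female in the granin ratio was not tested.

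**Figure D3:**
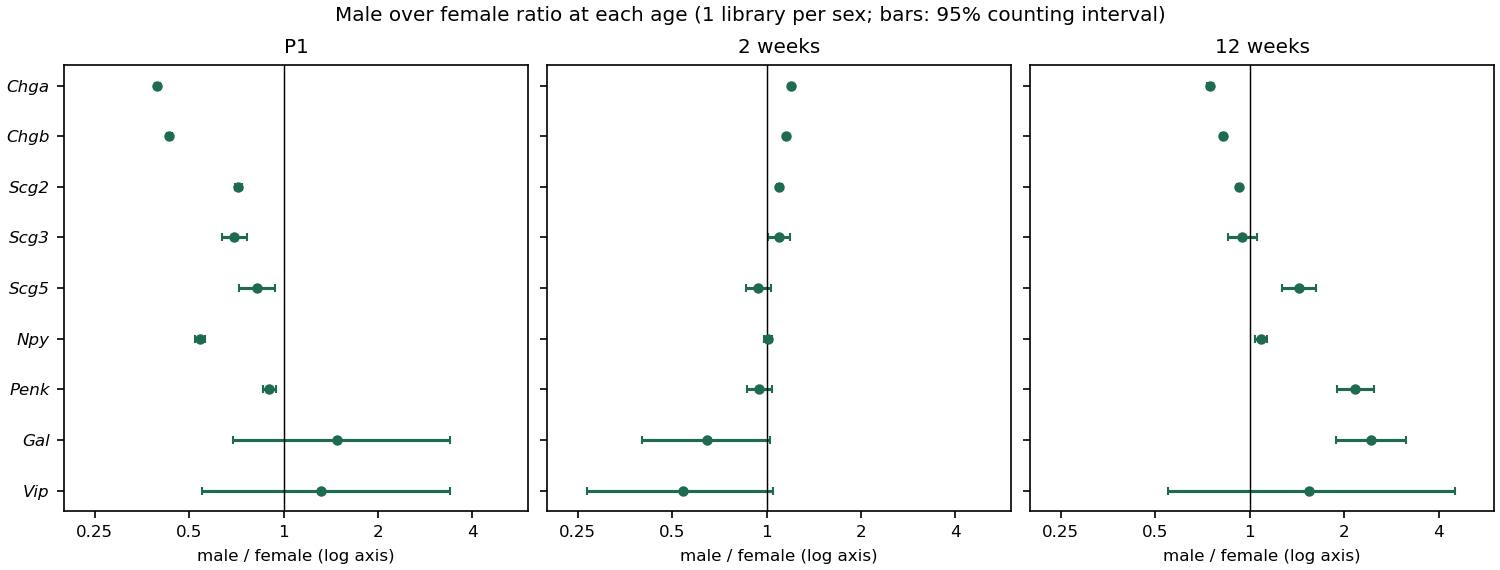
Male over female ratio of normalized counts (horizontal log axis, 1 marks equal levels) for 9 genes (vertical axis; Adcyap1, with 2 and 13 reads at P1, is left out) at P1, 2 weeks and 12 weeks, with 95% counting intervals and 1 library per sex and age. The granins and Npy lie left of 1 at P1, between 0.396 and 0.821, and Penk and Gal lie right of it at 12 weeks, at 2.17 and 2.43.

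Levels of different genes were compared per kilobase of exon. At E18.5 Chgb (4976 normalized counts per kb), Npy (4496), Chga (4074) and Scg2 (3927) were close together, followed by Penk (1233), Scg3 (266.7), Scg5 (192.2) and Gal (18.13). In the 12-week female library the order was Chgb (19225 per kb), Scg2 (15403), Chga (11132), Npy (7498), Scg5 (353.3), Scg3 (320.2), Penk (240.3) and Gal (135). Penk thus stood above both Scg3 and Scg5 at E18.5 and below both in 12-week females. In the 12-week male library Penk (521.1 per kb) and Scg5 (507.0) were side by side, and Gal (328.2) was level with Scg3 (303.3).

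Set against the geometric mean of Th, Ddc, Dbh and Slc18a1, a measure of the catecholamine machinery in each library chosen after the data were seen, the set split further. From E18.5 the log2 ratio of Scg2 reached 1.82 in 12-week male and 2.09 in 12-week female, and that of Chgb 1.63 and 2.07. Penk reached -1.28 and -2.24, and Gal 4.14 and 3.02. On this scale Chgb (1.202, limma adjusted p = 0.0127), Scg2 (1.56, adjusted p = 0.000907) and Gal (3.47, adjusted p = 0.000824) rose from P1 to 12 weeks and Penk fell (-2.39, adjusted p = 0.000323). From P1 to 2 weeks Chgb and Penk passed on this scale, while Scg2 (0.66, limma adjusted p = 0.0824) and Scg5 (0.64, limma adjusted p = 0.1005) did not. From 2 weeks to 12 weeks Scg2 passed as well as Gal (0.90, limma adjusted p = 0.0281, and 2.53, adjusted p = 0.0108). The geometric mean used as the scale was itself lower at 12 weeks (2814 and 2527 normalized counts, male and female) than at 2 weeks (3611 and 3172).

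**Figure D4:**
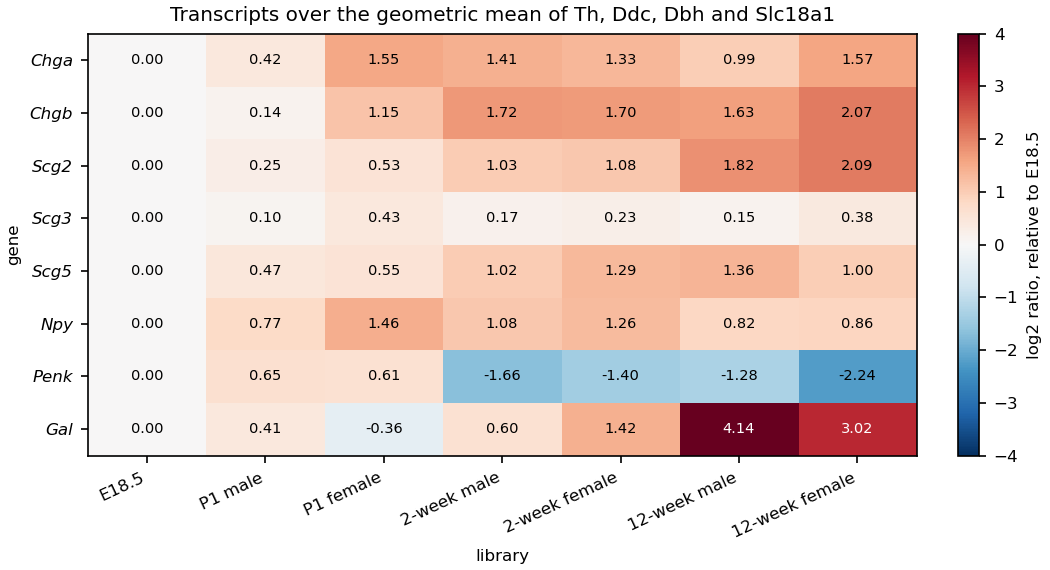
Log2 ratio of 8 transcripts (vertical axis) to the geometric mean of Th, Ddc, Dbh and Slc18a1 in each of the 7 libraries (horizontal axis), relative to E18.5; red is higher and blue lower. Scg3 stays between 0.00 and 0.43, Penk turns from 0.65 in P1 male to -1.66 in 2-week male, and Gal reaches 4.14 in 12-week male.

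The enzymes that process the precursors moved unevenly. Of 6 processing genes, 1 rose and 1 fell from P1 to 2 weeks, none passed from 2 weeks to 12 weeks (limma), and 3 rose and 2 fell from P1 to 12 weeks. Over all genes 16.4%, 15.3% and 41.2% passed in these comparisons. Pcsk1, which encodes the convertase PC1/3, had 370.5 normalized counts at E18.5, 434.5 and 720.8 at P1, 1588 and 1379 at 2 weeks, and 1640 and 2264 at 12 weeks (male and female). Its rise from P1 to 12 weeks was 1.78 ± 0.23 on the log2 scale (limma adjusted p = 0.00192). Cpe, the carboxypeptidase that trims the cut ends, rose by 0.88 ± 0.21 (limma adjusted p = 0.0166), and Pam, which amidates peptides, by 0.79 ± 0.16 (limma adjusted p = 0.00926). Pcsk2, the convertase that 7B2 serves, went from 180.0 and 264.9 at P1 to 397.6 and 374.1 at 2 weeks and 188.7 and 241.0 at 12 weeks, and passed in none of the comparisons (limma adjusted p = 0.0543, 0.0503 and 0.915). Ctsl, a cathepsin that also cuts precursors, fell by 0.91 ± 0.14 from P1 to 12 weeks (limma adjusted p = 0.00360).

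Of 8 genes of catecholamine synthesis and transport, 1 rose from P1 to 2 weeks, 4 fell from 2 weeks to 12 weeks, and 2 rose and 2 fell from P1 to 12 weeks in limma. These comparisons called 16.4%, 15.3% and 41.2% of all genes. Pnmt, the enzyme that makes adrenaline, had 2378 and 2761 normalized counts at P1, 4123 and 3758 at 2 weeks and 577.4 and 1206 at 12 weeks. It fell by 2.24 ± 0.28 on the log2 scale from 2 weeks to 12 weeks (limma adjusted p = 0.00475), over the ages at which Gal rose and Scg2 was 0.56 higher. Th was not called at any step (limma adjusted p = 0.619, 0.109 and 0.155), nor was Dbh. The other genes used for the catecholamine scaling were. Ddc fell by 0.63 ± 0.16 from 2 weeks to 12 weeks (limma adjusted p = 0.0494). Slc18a1 rose by 0.58 ± 0.15 from P1 to 12 weeks (limma adjusted p = 0.0225). Slc6a2, the noradrenaline transporter, fell by 2.17 ± 0.25 from P1 to 12 weeks (limma adjusted p = 0.00120).

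Of 14 genes of regulated exocytosis, 4 rose from P1 to 2 weeks, 6 fell from 2 weeks to 12 weeks, and 1 rose and 2 fell from P1 to 12 weeks in limma. The shares of all genes called were 16.4%, 15.3% and 41.2%. Syt1, a calcium sensor of release, rose by 0.89 ± 0.17 and then fell by 0.99 ± 0.17 on the log2 scale (limma adjusted p = 0.0168 and 0.0126). Cplx2, a complexin, rose by 0.94 and then fell by 1.13 (limma adjusted p = 0.0216 and 0.0129). Sv2c, a vesicle protein, fell by 4.34 ± 0.24 from P1 to 12 weeks (limma adjusted p = 0.000137), from 641.5 and 547.5 normalized counts to 25.17 and 31.68.

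Of 12 receptors for these peptides, 7 were tested. From P1 to 2 weeks 2 rose, from 2 weeks to 12 weeks none passed in limma, and from P1 to 12 weeks 1 rose and 1 fell. Beside these, 16.4%, 15.3% and 41.2% of all genes passed. Adcyap1r1, the PACAP receptor of chromaffin cells, was the most abundant and ranged from 1070 to 1356 normalized counts, while its ligand gene had at most 13 reads in a library. Npy2r, a receptor of neuropeptide Y, had 124.3 normalized counts at E18.5, 124.4 and 158.9 at P1, 403.9 and 331.7 at 2 weeks and 465.6 and 328.1 at 12 weeks, and rose by 1.47 ± 0.25 on the log2 scale from P1 to 12 weeks (limma adjusted p = 0.00501). Galr1, a galanin receptor, was highest in 12-week male, at 40.55 normalized counts against 2.45 to 17.79 in the other libraries, and passed in no comparison. Vipr2, a receptor of both Vip and PACAP, fell by 2.42 ± 0.54 from P1 to 12 weeks (limma adjusted p = 0.0129).

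Most other neuropeptide genes were near or below detection. Of 17 listed, 4 passed the filter on low values, and 10 had 0 reads in each 12-week library. Nts, the neurotensin gene, fell by 4.38 ± 0.82 from P1 to 12 weeks (limma adjusted p = 0.00688), from 48.28 and 17.66 normalized counts to 0 and 1.13 (0 and 1 reads), so the size of its fitted fall depends on the pseudocount of 1. Cartpt, which encodes the peptide CART, fell by 1.54 ± 0.36 (limma adjusted p = 0.0159). Of 3 granin-like genes, 2 fell and none rose from P1 to 12 weeks in limma, where 23.5% of all genes fell and 17.6% rose. Gnas, whose locus also makes a granin-like transcript that gene-level counts do not separate, fell by 0.83 ± 0.20 (limma adjusted p = 0.0187), and Vgf fell by 3.08 ± 0.27 (limma adjusted p = 0.000438), from 229.1 and 253.9 normalized counts to 30.76 and 24.89, in the opposite direction to Scg2 and Chgb.

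**Figure D5:**
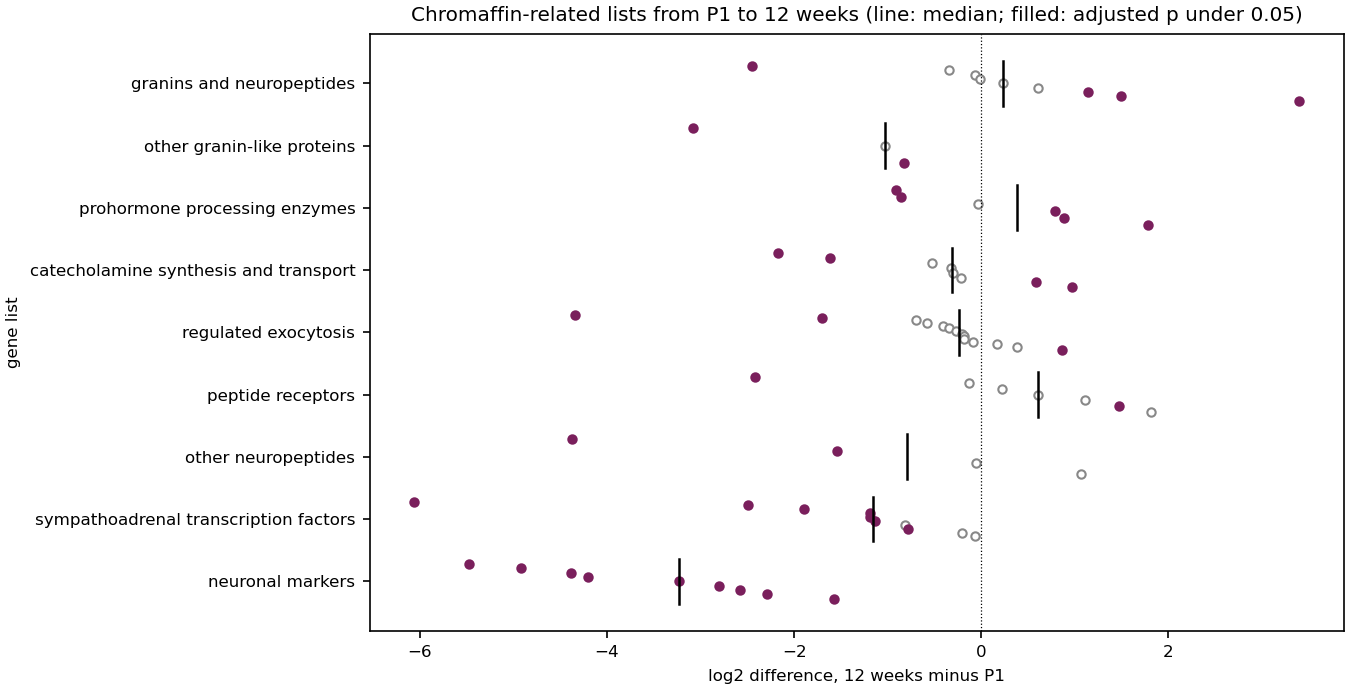
Difference from P1 to 12 weeks on the log2(normalized count + 1) scale (horizontal axis) for each tested gene of 9 lists (vertical axis); vertical bars are list medians and filled points passed an adjusted p of 0.05 in limma. The 9 granin and neuropeptide genes span -2.45 (Penk) to 3.40 (Gal), and all 9 tested neuronal markers lie below 0.

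Markers of other cells moved over the same ages. From P1 to 12 weeks 9 of 9 tested neuronal markers, 6 of 7 Schwann cell markers and 7 of 10 sympathoadrenal transcription factors fell and none rose in limma. Over all genes 23.5% fell and 17.6% rose. The neuronal list summed to 6830 and 7864 normalized counts at P1, 5442 and 4141 at 2 weeks and 971.7 and 548.7 at 12 weeks. The cholinergic markers Chat and Slc18a3, under the filter on low values and so not tested, were at 0 in both 12-week libraries. Slc5a7, the other cholinergic marker listed and also not tested, was not at 0 in either. In each P1 library 1 of the 12 listed neuronal markers was also at 0 reads. All 7 adipocyte markers rose from P1 to 2 weeks, from sums of 2883 and 3013 to 41150 and 45570, and 27122 to 32289 at 12 weeks. Sums fell from P1 to 2 weeks for liver (377234 and 258424 to 12925 and 33645), skeletal muscle (73204 and 137572 to 145.9 and 7358) and kidney markers (9039 and 2476 to 65.83 and 63.52), with 7 of 7, 6 of 7 and 8 of 8 genes passing. Of all genes 5.89% were called higher and 10.5% lower from P1 to 2 weeks. Between the same ages the cortical list went from 488836 and 273029 to 559843 and 565226, and then to 903542 and 1169408 at 12 weeks. The part of these cells in the differences of the granin and neuropeptide genes was not tested.

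The genes whose pattern over the 7 libraries was most like each abundant member were found among 12248 genes by Pearson's r of log2 values, a description with no test. For Chgb they were Sbspon (0.991), Taf9b (0.990) and Cul9 (0.990), and for Chga Dpyd (0.987), Slc39a13 (0.984) and Mfsd6 (0.978). The nearest to Scg2 were Retn (0.995), A530016L24Rik (0.995) and Nr3c2 (0.995), and Retn is 1 of the 7 adipocyte markers. Scg5 was nearest to Aoc3 (0.993), Aqp7 (0.992) and Ech1 (0.990), and Scg3 to Klf12 (0.991), Wdr19 (0.977) and Agap3 (0.970). Penk was nearest to Aspn (0.994), Pld1 (0.993) and Clec3b (0.991), and Npy to 4632415L05Rik (0.980), Csnk1g2 (0.980) and Kcnh2 (0.975). Within the set, r was 0.898 between Chgb and Scg2, 0.941 between Chga and Scg3, 0.924 between Npy and Scg3, and -0.876 between Penk and Scg2.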

How the data were processed

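Total RNA was extracted with guanidinium thiocyanate and sequenced as Illumina libraries, per the labels' protocols. The submitters' processing notes name CASAVA 1.8.2, HISAT2 2.1.0, HTSeq 0.9.1, DESeq2 2.11.40.6 and the build mm10. The annotation and the use of strand are not given in the sources used here. The authors deposited normalized counts, here treated as a signal and not as raw counts: 100.0% of values were whole reads divided by 1 size factor per library (tolerance 0.001 reads). Total reads in genes were 15184210 to 23551289 per library, and counting intervals (95%, exact Poisson for levels and exact binomial for ratios) cover counting error only.

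The test set was the genes whose mean over the libraries reached 10 normalized counts. The package limma 3.58.1 (R 4.3.3; lmFit, eBayes with a trend) was applied to log2(normalized count + 1), a scale that understates changes of low genes. The model had age and sex over the 6 postnatal libraries, with 2 residual degrees of freedom. Tests were two-sided with Benjamini-Hochberg adjustment over all 16720 genes and a threshold of 0.05. A count model, edgeR 4.0.16 on the recovered reads, called 2854 genes for P1 to 2 weeks, 2441 between 2 weeks and 12 weeks, 6781 between P1 and 12 weeks and 1 for sex. Comparisons of 2 single libraries used a limit of 2-fold and no test. Gene positions and exon lengths come from GENCODE M21, matched by symbol, and sequences from RefSeq on GRCm38.p6. Scripts were tested on simulated data.

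All 10 genes are reported. From other lists up to 4 genes are named, the 2 most abundant and the 2 most changed from P1 to 12 weeks, besides Th, Dbh, Ddc, Pnmt, Slc18a1, Pcsk1, Pcsk2 and Cpe. Islet hormone genes and the cholinergic markers Chat and Slc18a3 are named because they were at or near 0. Slc5a7 is named beside them as the other cholinergic marker listed. Genes and lists were chosen with earlier results of these data known.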

Additional observations from a re-analysis of the deposited data

Results flagged for a closer look

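Some genes differed between the sexes in opposite directions at different ages, beyond counting error, with 1 library per sex and age. The difference between ages was not tested. The male over female ratio of Chga was 0.396 for P1, 1.199 for 2 weeks and 0.747 for 12 weeks. That of Chgb was 0.432, 1.156 and 0.821, and that of Scg2 0.717, 1.097 and 0.925. For Scg3 the ratio was 0.695 at P1 and 1.096 at 2 weeks. From P1 to 12 weeks the ratio of Scg5 went from 0.821 to 1.435, that of Npy from 0.540 to 1.086 and that of Penk from 0.902 to 2.169. Scaled to Th, Ddc, Dbh and Slc18a1 the opposite directions were lost for Scg2 (0.964 at 2 weeks), Scg3 (0.963 at 2 weeks), Npy (0.975 at 12 weeks) and Penk (1.034 at P1). Chga and Chgb stood at 1.053 and 1.015 at 2 weeks on that scale, and Scg5 at 0.942 at P1 and 1.289 at 12 weeks.

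Others changed with age in opposite directions in the male and female libraries, which was not tested either. From P1 to 2 weeks Chga was 2.755 times its earlier level in males and 0.910 times in females, and Npy 1.723 and 0.922 times. From 2 weeks to 12 weeks Chgb was 0.731 times its earlier level in males and 1.029 times in females. Between P1 and 12 weeks the corresponding ratios were 1.61 and 0.854 for Chga, 1.117 and 0.820 for Scg3, and 1.118 and 0.556 for Npy. On the catecholamine scale the opposite directions were lost for Chga between P1 and 12 weeks (1.491 in males and 1.01 in females), and with equal library totals for Chgb (0.922 in females). Scg3 was close to 1 in both sexes on the catecholamine scale (1.034 and 0.970). The library labelled P1 female held Y-linked transcripts and the P1 male library pancreatic ones, and every ratio at P1 or from P1 rests on 1 of them or on both.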

How the results depend on the processing

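Each group had 1 pool, so leaving out a library left 1 residual degree of freedom, and the lone library of an age was assumed to vary like the others. Sex served as a block across the postnatal ages. No further pairing was possible because the labels give no replicate numbers shared between groups. Of 536 log2 differences of the 9 genes under the alternatives, 451 kept direction and side of the threshold, 41 lost the call, 6 gained it and 38 changed sign, none of which passed in limma before. A scaling to Th, Ddc, Dbh and Slc18a1 was chosen after seeing the data. Of 122 ratios between single libraries under TMM or equal totals, 89 moved by less than counting error, 32 moved more and 1 changed direction, Chgb from 2 weeks to 12 weeks in females (0.922 with equal totals). Of 61 under the catecholamine scaling, 23 moved by less, 33 moved more and 5 changed direction. These were the male over female ratios of Penk at P1 (1.034), Scg2 (0.964) and Scg3 (0.963) at 2 weeks and Npy at 12 weeks (0.975), and the change of Chga between P1 and 12 weeks in females (1.01).

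From P1 to 2 weeks 2737 genes and 4 of the 9 passed in limma. With no filter on low genes these became 0 (6431 at an unadjusted p under 0.05) and 0, with no trend 1672 and 0, and with a library left out 2 to 4461 and 0 to 5. With the catecholamine scaling 2 of the 9 passed. For 2 weeks to 12 weeks 2557 and 1 passed, against 0 (6036 unadjusted) and 0 with no filter, 1661 and 0 with no trend, 421 to 3035 and 0 to 2 with a library left out, and 2 of the 9 with the catecholamine scaling. From P1 to 12 weeks 6881 genes passed, and 3207 to 6271 with a library left out. For sex 1 gene passed, against 0 with no filter (783 unadjusted), 0 with no trend (638 unadjusted) and 0 to 51 with a library left out. Scaling moved the balance of directions. From P1 to 2 weeks 985 genes were higher and 1752 lower, but 452 and 2408 with the catecholamine scaling, which moved the median of all genes to -0.27. From 2 weeks to 12 weeks 903 were higher and 1654 lower, but 647 and 2515 with equal library totals (median -0.20) and 2030 and 1080 with the catecholamine scaling (median 0.31). With equal totals the median from P1 to 12 weeks was -0.15.

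At least 2-fold apart were 1405 genes from E18.5 to P1 male, 2200 from E18.5 to P1 female, and 1134, 709 and 1476 between the sexes at P1, 2 weeks and 12 weeks. With no filter these were 3933, 5793, 4550, 2331 and 5215, at a mean of at least 50 they were 624, 1204, 473, 325 and 814, at 1.5-fold 3663, 5071, 3206, 1684 and 3746, and at 4-fold 280, 400, 209, 185 and 276. Of the 9 genes, E18.5 to P1 male gave 0 at a mean of at least 50 and 2 at 1.5-fold, E18.5 to P1 female 7 at 1.5-fold and 1 at 4-fold, the sexes at P1 0 at 4-fold, at 2 weeks 2 at 1.5-fold and 1 with the catecholamine scaling, against 0, and at 12 weeks 0 at 4-fold and 1 with the catecholamine scaling, against 2.

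With the catecholamine scaling the sign turned from P1 to 2 weeks for Scg3 (-0.065), from 2 weeks to 12 weeks for Chgb (0.138), Scg3 (0.0674) and Scg5 (0.0257), from P1 to 12 weeks for Scg3 (0.00217) and Vip (0.0419), and between the sexes for Vip (-0.00785, and -0.0603 in edgeR). With a library left out, log2 differences from P1 to 2 weeks ranged from -0.063 to 0.49 for Scg3, -0.14 to 0.81 for Npy and -0.027 to 1.28 for Vip. From 2 weeks to 12 weeks they ranged from -1.004 to 0.14 for Chga, -0.68 to 0.27 for Chgb, -0.67 to 0.035 for Scg5, -1.18 to 0.043 for Penk and -1.30 to 0.010 for Vip. From P1 to 12 weeks they ranged from -0.40 to 0.86 for Chga, -0.34 to 0.21 for Scg3, -0.82 to 0.13 for Npy and -0.42 to 0.39 for Vip. Between the sexes they ranged from -0.30 to 0.010 for Scg2, -0.30 to 0.027 for Scg3, -0.19 to 0.22 for Scg5, -0.44 to 0.066 for Npy, -0.11 to 0.52 for Penk, -0.041 to 0.90 for Gal and -0.24 to 0.47 for Vip. The cause was not tested. Depth limited Vip and Adcyap1, which had at most 28 and 13 reads in a library.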
